A study of Mus musculus with 12 samples.

Results

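Mest, Copg2, Nnat, Dlk1, Peg3, Plagl1, Igf2, H19, Cdkn1c and Grb10 are 10 of the 32622 genes measured by RNA-seq in the white fat of mice with and without C2orf74. They are known imprinted genes and were chosen by name. The choice was made with results of these data known: Mest and Copg2 came in through their lower values in subcutaneous fat of the mice lacking C2orf74, so in that comparison all 10 are described without a test. All 10 were found in the tables, and 8 reached the filter used for testing (1 FPKM or more in 3 or more of the 6 libraries compared) in each comparison. Dlk1 and H19 did not.

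The 12 libraries form 4 groups of 3. C2orf74 KO mice C7, C34 and C695 and WT mice C75, C85 and C99 each gave 1 library from epididymal fat (epWAT) and 1 from subcutaneous fat (scWAT). All 6 mice, KO and WT alike, received a high-fat diet for 12 weeks, starting when they were 8 weeks old. The sources used here give neither the strain nor how the C2orf74 allele was made, and the label KO does not say in which cells the gene was lost. Because both pads come from the same mice, the 2 depots are not independent of each other.

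In imprinted genes the copy from 1 parent is silent, so that a single dose of the gene is expressed. Which copy is silent depends on DNA methylation that was set in the germ line. Many of them act on fetal growth. Paternally expressed genes such as Igf2, Mest, Dlk1 and Peg3 mostly promote growth, while the maternally expressed genes H19, Cdkn1c and Grb10 mostly restrain it. In fat, Mest is known as a gene whose level follows the expansion of adipocytes in mice on a fat-rich diet, and Dlk1 marks preadipocytes. FPKM values carry no information on the parental copy, so the data describe total transcript levels.

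Mest and Copg2 lie tail to tail on chromosome 6. In GRCm38 with GENCODE M21 models, Mest (ENSMUSG00000051855) runs from 30723547 to 30748465 on the plus strand and Copg2 (ENSMUSG00000025607) from 30747554 to 30896794 on the minus strand. They share 912 bp, 30747554 to 30748465, which is exonic in both genes. Mir335 lies at 30741299 to 30741396 on the plus strand within Mest, with 0 of its bases in Mest exons. The starts of both genes and the mature microRNA are shown because they carry the annotated CG-rich promoters of this locus and the product of the Mest intron. Gene-level FPKM does not show which annotated start was used. Each start is 300 bases of RefSeq sequence on GRCm38.p6, 250 before the start and 50 after it, 5′ to 3′ on the gene's own strand, with every CG pair, the target of imprinting methylation, in capitals. In the microRNA the seed, bases 2 to 8, is in capitals.
Mest, chr6:30737803-30738102, plus strand: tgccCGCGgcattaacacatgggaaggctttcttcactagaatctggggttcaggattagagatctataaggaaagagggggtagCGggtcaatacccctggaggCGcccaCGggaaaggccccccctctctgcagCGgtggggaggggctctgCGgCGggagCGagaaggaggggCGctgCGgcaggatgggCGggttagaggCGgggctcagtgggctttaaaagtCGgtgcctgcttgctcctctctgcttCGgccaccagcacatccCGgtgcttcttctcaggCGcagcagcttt
Copg2, chr6:30896745-30897044, minus strand: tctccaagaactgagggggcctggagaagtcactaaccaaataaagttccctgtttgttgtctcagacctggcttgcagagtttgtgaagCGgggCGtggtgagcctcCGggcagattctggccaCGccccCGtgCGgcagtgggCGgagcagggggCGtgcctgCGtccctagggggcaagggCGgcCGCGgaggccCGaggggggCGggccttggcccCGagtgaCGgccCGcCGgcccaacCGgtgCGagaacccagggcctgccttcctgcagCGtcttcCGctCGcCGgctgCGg
mmu-miR-335-5p, chr6:30741314-30741336, plus strand: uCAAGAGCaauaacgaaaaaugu

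The Mest start holds 17 CG pairs and the Copg2 start 25, against a median of 7 over the 32851 promoters in the same table. A second annotated Mest start, upstream at chr6:30733256-30733555, has 8. TGCCGC, searched on both strands, is the motif that the imprint-protecting zinc finger protein ZFP57 recognises when methylated. It occurs 2 times in the Mest window and 1 time in that of Copg2, and 0 times in the upstream Mest window. Of the 14 promoter windows matched to 8 of the 10 genes, 7 hold it, against 11.6% of all promoters, and 9 hold at least 10 CG pairs, against 43.5%. TGCCGC itself holds a CG pair, and the promoters compared were not matched for CG content. Windows of one gene can overlap, as those of Mest starting at 30737800 and 30737803 do, or share a locus. These shares are therefore descriptions. No window was matched for H19 and Cdkn1c.

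Depth recovered from the FPKM values was 15011093 to 18311564 reads per library, and 9 of the 10 genes gave whole reads in all 12 libraries, H19 being the exception. The adipocyte hormone gene Adipoq was between 1108 and 2442 FPKM in every library. The counterpart of C2orf74 in the mouse, 1700093K21Rik, had too few reads to check the labels closely: 1 over the KO and 7 over the WT epWAT libraries, and 2 against 20 in scWAT. Epididymis and germ cell markers (12 of 14 listed genes in the files) summed to 405 FPKM in KO epWAT C7, to 9.30 in KO epWAT C695 and to at most 1.77 in the other libraries. Lymphocyte markers (12 genes) summed to 257 FPKM in KO scWAT C695 and to at most 15.1 elsewhere. Skeletal muscle markers (8 genes) varied within the groups. They summed to 10.3 to 290 FPKM in KO scWAT, highest in C34, and to 31.6 to 149 FPKM in WT scWAT. In epWAT the sums were 38.5 to 60.3 FPKM in KO and 8.36 to 27.6 FPKM in WT. Values without KO epWAT C7 or KO scWAT C695 are given beside the results that moved most. In whole fat, fewer cells of a type and less RNA per cell cannot be told apart.

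The 10 genes covered a wide range of levels. Averaged over the 12 libraries, Nnat was at 619.6 FPKM, above 99.9% of all genes, Mest at 172 and Copg2 at 29.6. Peg3 was at 18.6, Plagl1 at 8.93, Grb10 at 8.02, Cdkn1c at 2.997 and Igf2 at 1.23 FPKM. H19 and Dlk1 stood at 0.320 and 0.140 FPKM. FPKM here is per summed length of all annotated exons of a gene, whether used or not, so levels of different genes compare only roughly. Plagl1 and Grb10 do not differ beyond their spread over libraries (6.06 to 13.8 and 5.82 to 9.47 FPKM), nor do Copg2 and Peg3 (14.2 to 45.8 and 4.08 to 36.7 FPKM).

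**Figure D1:**
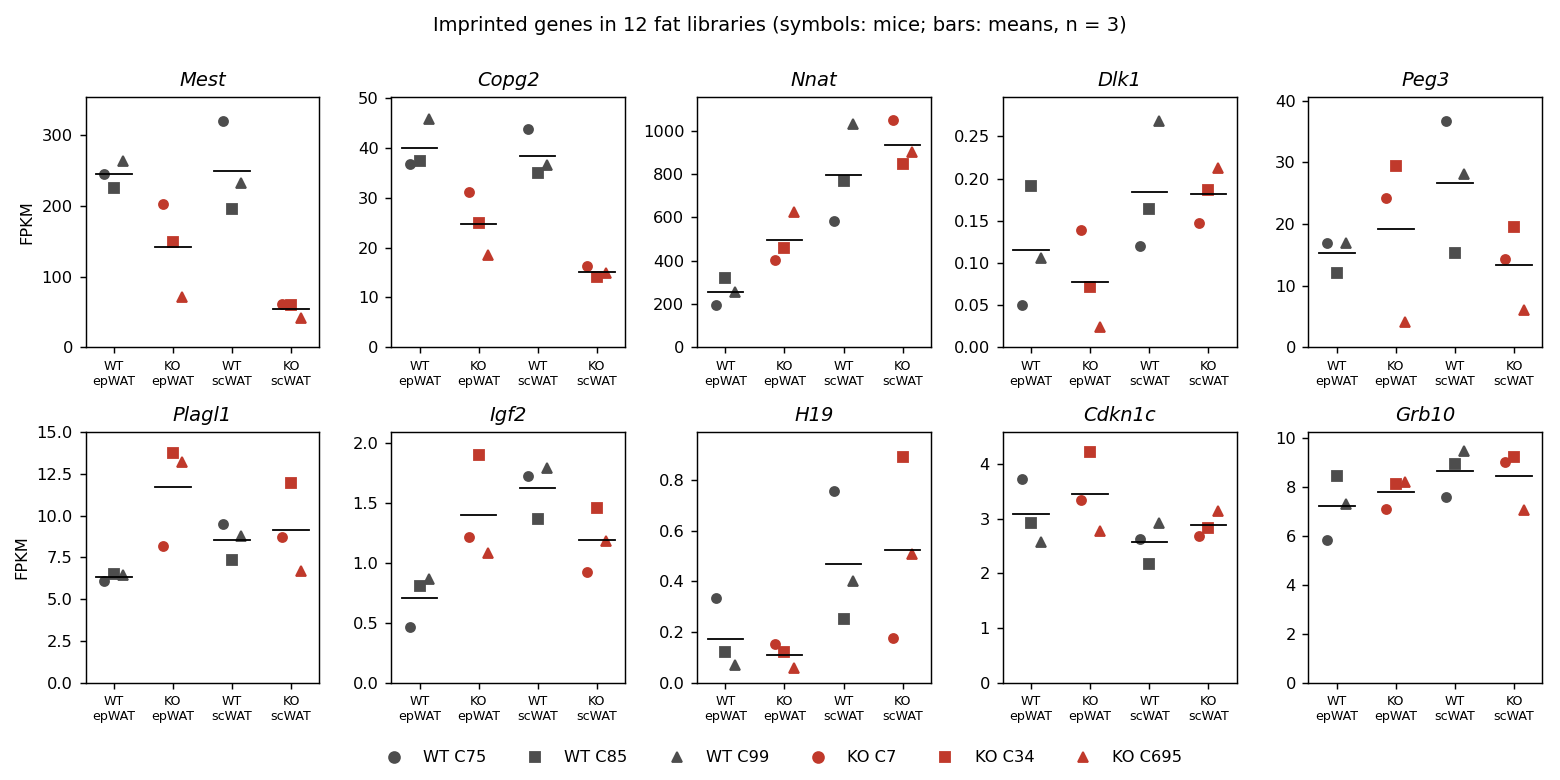
FPKM (linear axis from 0, scaled per gene) of the 10 imprinted genes in WT and KO epWAT and scWAT; each symbol is 1 mouse and each bar the mean of 3 libraries. Mest in KO scWAT lies between 40.8 and 61.4 FPKM, below all other libraries, while Nnat and Plagl1 in KO epWAT lie above all WT epWAT libraries.

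Mest encodes a membrane protein of the alpha/beta hydrolase fold found in the endoplasmic reticulum. It was abundant in WT fat of both pads and lower in KO libraries, most of all in scWAT. In scWAT it was at 61.4, 60.2 and 40.8 FPKM in KO mice C7, C34 and C695 and at 320.5, 196 and 232 FPKM in WT mice C75, C85 and C99. Every KO library was thus far below every WT library. Means were 54.2 ± 11.6 and 249 ± 64.2 FPKM (mean ± SD, n = 3), a log2 difference, on the log2(FPKM + 1) scale used throughout, of -2.18. These are values that chose the gene. The difference was -1.99 without KO C695.

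In epWAT Mest was at 203, 149 and 71.6 FPKM in KO mice C7, C34 and C695 and at 245, 225 and 264 FPKM in WT mice C75, C85 and C99. The groups did not overlap, but the KO mice were spread widely, with C7 close to the WT mice. KO averaged 141 ± 66.1 and WT 245 ± 19.4 FPKM (mean ± SD, n = 3). The log2 difference was -0.91 ± 0.36 (SE), and limma gave an adjusted p = 0.157, so the difference did not pass the threshold of 0.05. It was -0.49 without KO C695 and -1.23 without KO C7 (adjusted p = 0.151 and 0.0521). In this comparison 0% of 12722 genes passed, 29.8% had an unadjusted p under 0.05, and 29.2% had all KO values below all WT values (1759 genes passed in a fit over 12 libraries with the mouse as a random replicate block and 1765 without the block, and 1781 without KO C7), so that Mest and Copg2 were among many genes with that pattern.

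Within mice, the scWAT level of Mest was 0.302, 0.403 and 0.570 times the epWAT level in KO mice C7, C34 and C695. In WT mice C75, C85 and C99 the ratios were 1.31, 0.868 and 0.879. All 3 KO mice thus had less Mest in the subcutaneous than in the epididymal pad, and 2 of 3 WT mice had slightly less. The mean depot difference was -1.27 in KO and -0.001 in WT, and the sign of the WT value turned in 10 of 19 alternative settings. The KO depot difference was -0.76 when KO epWAT C7 and KO scWAT C695 were both left out. No test is given for these, since they rest on the libraries that chose the gene, and the difference between genotypes in the depot effect was not tested.

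**Figure D2:**
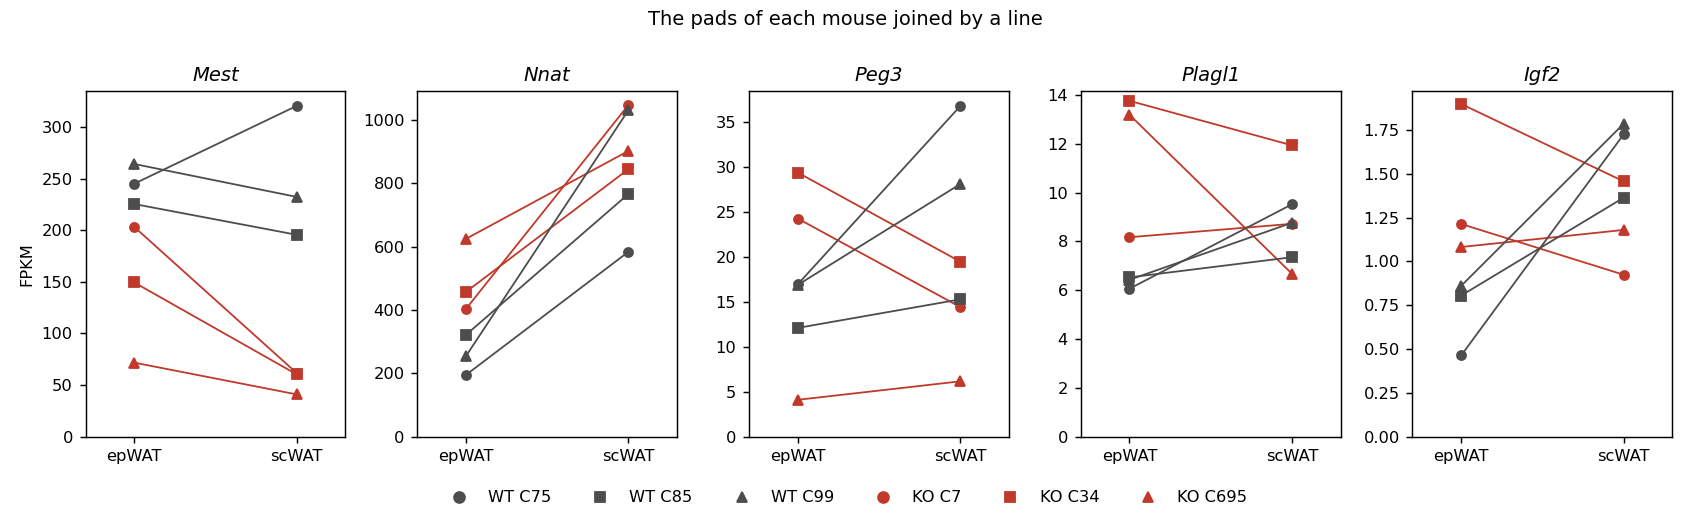
FPKM (linear axis from 0) of 5 imprinted genes in the epididymal and subcutaneous pad, with a line joining the pads of each mouse. Lines for Mest fall steeply in KO mice C7 and C34, with scWAT to epWAT ratios of 0.302 and 0.403, and lines for Nnat rise in all 6 mice.

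Copg2 encodes a gamma subunit of the COPI coat, which buds vesicles that return from the Golgi to the endoplasmic reticulum. Its values ran alongside those of Mest. In scWAT it was at 16.3, 14.2 and 14.8 FPKM in KO mice C7, C34 and C695 and at 43.8, 34.9 and 36.5 FPKM in WT mice C75, C85 and C99. All KO values lay below all WT values, with a log2 difference of -1.29. In epWAT it was at 31.0, 24.8 and 18.5 FPKM in KO and 36.8, 37.3 and 45.8 FPKM in WT, in the same order of mice. Those groups did not overlap either. The epWAT difference was -0.69 ± 0.19 (SE), with an adjusted p = 0.0815. It passed without KO C7, at a difference of -0.86 (adjusted p = 0.0313), where 1781 genes passed in all. Its smallest adjusted p over the 19 alternative settings was 0.0266.

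Reads in the shared 912 bp bear on how Copg2 is read, because the strand setting of the counting is not given in the sources used here. If Mest reads lay evenly over its 3945 bp of exons, 650.3 to 4732 of them per library would fall in the overlap. That equals 49.0% to 130% of the reads recorded for Copg2, and more than all of them in 7 of 12 libraries. Mest reads were therefore either not even or not all counted to Copg2 as well, and the data do not tell which. Across the 12 libraries Copg2 followed the line 9.03 + 0.119 times Mest, in FPKM. The largest distance from the line was 5.33 FPKM, in WT epWAT C99. How much of the Copg2 difference belongs to Copg2 itself cannot be told apart from Mest in these values.

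Of 11 other listed coat and ARF genes, 0 passed in either KO comparison, where 0% and 0.317% of all genes passed. In epWAT 10 of the 11 had lower means in KO and 6 had all KO values below all WT values, as Copg2 did and as 29.2% of all tested genes did. In scWAT 8 of the 11 had lower means, and 0 had all KO values below all WT values. Their median log2 difference was -0.10 in epWAT and -0.04 in scWAT, beside -0.10 and 0.01 over all tested genes. In epWAT the smallest p belonged to Copb2, at 28.9 ± 0.59 FPKM in KO and 32.2 ± 0.97 FPKM in WT (adjusted p = 0.168). The paralogue Copg1, the other gamma subunit, was at 14.7 ± 0.54 FPKM in KO and 16.1 ± 0.83 FPKM in WT scWAT (mean ± SD, n = 3; log2 difference -0.12, adjusted p = 0.427).

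**Figure D3:**
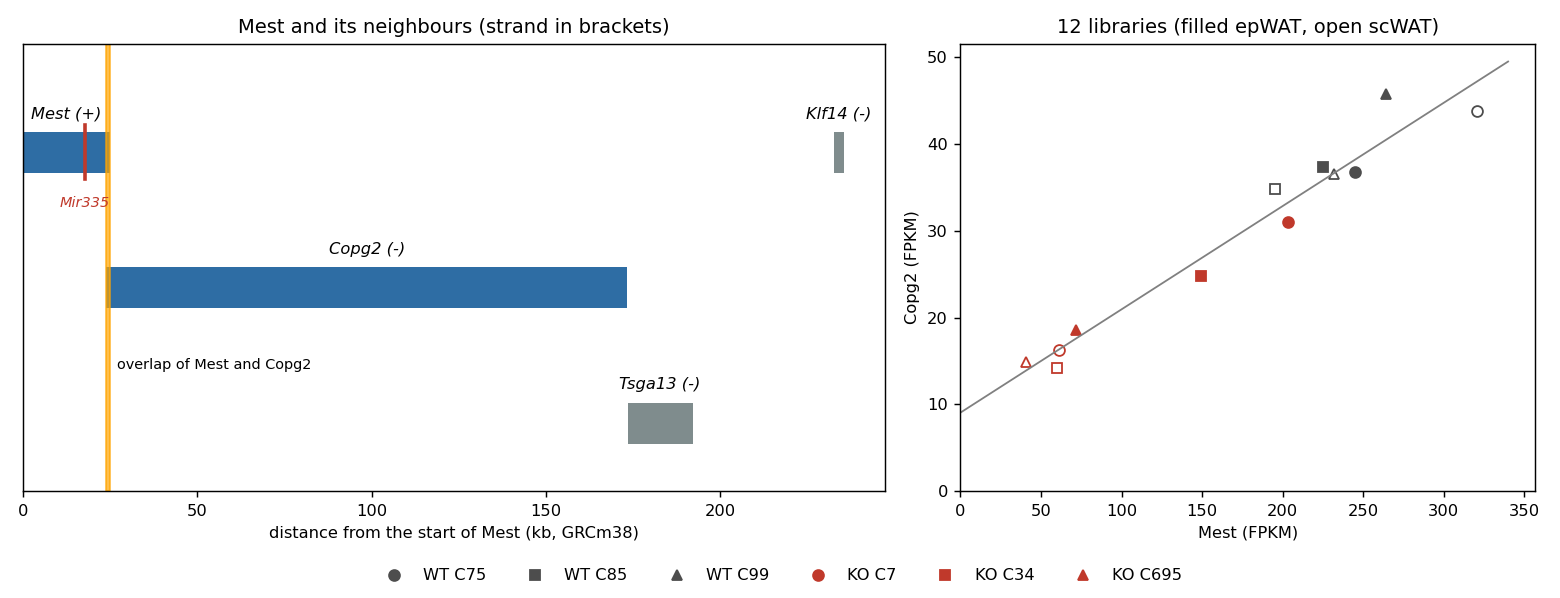
Left, Mest and its neighbours by distance from the start of Mest (kb), with the shared 912 bp in orange. Right, Copg2 against Mest in FPKM for 12 libraries (filled epWAT, open scWAT; red KO, grey WT) with the line 9.03 + 0.119 times Mest, from which no library departs by more than 5.33 FPKM.

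Mir335, which is transcribed within Mest, had few reads. KO scWAT libraries held 3 reads in all and WT scWAT libraries 26, which, scaled to depth, is 0.118 times as many. No limits are given there, since Mir335 lies within Mest, which this comparison had chosen. In epWAT the sums were 17 and 18, 1.04 times as many (exact 95% limits 0.501 and 2.13, covering counting error only and not the spread between mice). Single libraries held 0 to 18 reads. WT scWAT C75 held 18 and WT scWAT C99 held 0, so the sums rest on few libraries. Such reads come from longer transcripts of the intron rather than from mature microRNA, which standard RNA libraries do not capture.

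Among 13475 genes that reached 1 FPKM in 3 or more of the 12 libraries, those most like Mest by Pearson correlation over the 12 libraries were Copg2 (r = 0.978), Klf14 (0.960), Hspg2 (0.957), Acoxl (0.956) and Oxtr (0.953). For Copg2 they were Mest, Acoxl (0.976), Cela1 (0.968), Eno1b (0.963) and Eno1 (0.958). Eno1 and Eno1b are near-identical copies between which reads may be split. The points share the 4 groups and the libraries, so the coefficients are descriptions. Klf14, a maternally expressed transcription factor gene, starts its annotated span 232 kb from that of Mest. It was at 2.37 ± 0.64 FPKM in KO and 6.31 ± 1.72 FPKM in WT scWAT (mean ± SD, n = 3), a log2 difference of -1.11 ± 0.21 (SE; adjusted p = 0.0926). In epWAT it was at 4.19 ± 2.13 and 6.98 ± 1.34 FPKM (log2 difference -0.70, adjusted p = 0.209), and there the groups overlapped.

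Of 11 other genes listed for the Mest locus and the imprinted clusters of chromosome 6, 7 were tested in each comparison and 0 passed in either KO comparison. Their median log2 difference was 0.07 in epWAT and -0.01 in scWAT. After Klf14, the smallest p in scWAT belonged to Klhdc10, at 8.80 ± 0.49 FPKM in KO and 11.9 ± 1.10 FPKM in WT (adjusted p = 0.123), and to Ppp1r9a, at 3.92 ± 0.36 and 3.20 ± 0.21 FPKM (adjusted p = 0.285). In epWAT Ppp1r9a was at 3.43 ± 0.33 and 2.55 ± 0.29 FPKM (adjusted p = 0.109). Nap1l5 was higher in scWAT than in epWAT in both genotypes, by 1.10 ± 0.08 in WT and 1.34 ± 0.19 in KO (SE; adjusted p = 0.00253 and 0.0491).

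Genes known to vary with Mest between mice that gain much or little fat were looked at as a list: Sfrp5, Bmp3, Nkd1, Npr3, Lep, Cav1 and Cavin1. In scWAT all 7 had KO values below all WT values, a pattern seen in 13.4% of 12614 tested genes. Their median log2 difference was -0.996 beside 0.01 over all genes. The list was chosen with earlier results of these data known, and for its relation to Mest, which this comparison had chosen. Its shares and p-values in scWAT are therefore descriptions. Lower calls made up 0.27% of all tested genes. The leptin gene Lep was the 1 of the 7 that passed, at 656 ± 112 FPKM in KO and 1677 ± 87.6 FPKM in WT (mean ± SD, n = 3; log2 difference -1.37 ± 0.14 SE; adjusted p = 0.0439). Nkd1, an inhibitor of Wnt signalling, was at 5.75 ± 1.71 and 14.6 ± 2.14 FPKM (adjusted p = 0.0763). Sfrp5, a secreted Wnt inhibitor, was at 106 ± 17.7 and 236 ± 53.9 FPKM (adjusted p = 0.0866). Of all genes 40 passed in scWAT, and 0 did, Lep included, without KO C7, without WT C85 or without WT C99. The count was 1 without KO C34 and without WT C75, and 142 without KO C695. In the fit over 12 libraries it was 265 with the mouse as a random replicate block and 251 without it.

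In epWAT, 4 of those 7 genes had lower and 3 higher means in KO, 0 passed, and the median difference was -0.30. Nkd1 was at 9.48 ± 1.69 FPKM in KO and 13.9 ± 1.18 in WT (mean ± SD, n = 3; adjusted p = 0.0751), and Lep at 1157 ± 22.0 and 1495 ± 178 (adjusted p = 0.122). In WT, Bmp3 and Npr3 were higher in scWAT than in epWAT, by 1.10 and 0.50 (adjusted p = 0.00821 and 0.00999).

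**Figure D4:**
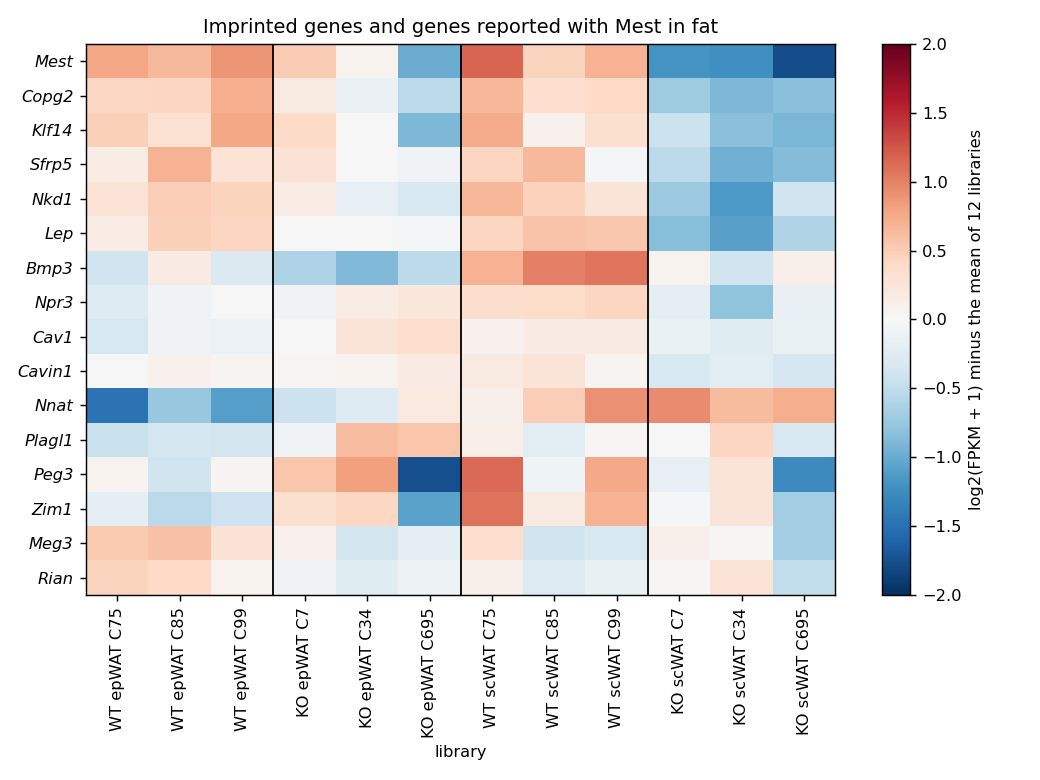
Log2(FPKM + 1) of imprinted genes and genes known to vary with Mest, minus the gene's mean over 12 libraries (blue below it, red above it). KO scWAT columns are blue for Mest, Copg2, Klf14, Sfrp5, Nkd1 and Lep, and Peg3 and Zim1 are lowest in both libraries of mouse C695.

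Nnat encodes neuronatin, a small proteolipid of the endoplasmic reticulum that is expressed from the paternal copy. It was the most abundant of the 10 genes and higher in scWAT than in epWAT in all 6 mice. In epWAT it was at 404, 457 and 625 FPKM in KO mice C7, C34 and C695 and at 195, 321 and 254 FPKM in WT mice C75, C85 and C99. The KO values lay above all WT values, as for 9.60% of tested genes. The difference was 0.95 ± 0.23 (SE), and it missed the threshold, with an adjusted p = 0.0723. It passed without KO C7, at 1.08 (adjusted p = 0.0443), and in a fit over all 12 libraries, with the mouse as a random replicate block or without it (adjusted p = 0.0311 and 0.0320). Without KO C7, 1781 genes passed in all, and nearly as many did in the fits over 12 libraries. In scWAT the groups overlapped, at 1048, 845 and 903 FPKM in KO and 584, 767 and 1032 FPKM in WT. The difference was 0.26, and 0.06 without WT C75 or 0.47 without WT C99.

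Nnat rose from epWAT to scWAT in WT mice by 1.62 ± 0.25 (SE; adjusted p = 0.00879), where 22.4% of 12760 genes passed, 7.49% as higher and 14.9% as lower in scWAT. Those were 956 and 1896 genes, and 1341 and 1484 with upper-quartile or 1413 and 1502 with quantile scaling. In KO mice the depot difference was 0.93 ± 0.19 (adjusted p = 0.112), where 0.713% of 12623 genes passed, or 90, and 12 with the mouse as a replicate block. Whether these differ was not tested. The scWAT to epWAT ratios were 2.999, 2.39 and 4.06 in WT mice C75, C85 and C99 and 2.60, 1.85 and 1.44 in KO mice C7, C34 and C695. Nnat (ENSMUSG00000067786, chr2, 157560078 to 157562522, plus strand) lies inside an intron of Blcap on the minus strand. Blcap was at 30.8 ± 1.53 FPKM in WT epWAT and 44.6 ± 3.68 FPKM in WT scWAT (mean ± SD, n = 3; log2 difference 0.52, adjusted p = 0.00747).

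Plagl1 encodes a zinc finger transcription factor that activates other genes of the imprinted growth network and is expressed from the paternal copy. In epWAT it was at 8.17, 13.8 and 13.2 FPKM in KO mice C7, C34 and C695 and at 6.06, 6.53 and 6.43 FPKM in WT mice C75, C85 and C99. WT mice were close together and all KO mice were above them. The difference was 0.76 ± 0.19 (SE; adjusted p = 0.0720), and it passed without KO C7, at 0.98 (adjusted p = 0.0187), and in the fit over 12 libraries with or without the block (adjusted p = 0.0400 and 0.0392). These are the settings in which many genes passed, 1781 of them without KO C7. In scWAT Plagl1 was at 8.72, 11.9 and 6.68 FPKM in KO and 9.53, 7.35 and 8.77 FPKM in WT, groups that overlapped, with a difference of 0.06 that ranged from -0.14 without KO C34 to 0.24 without KO C695. It was higher in scWAT than in epWAT in WT mice, by 0.37 ± 0.10 (adjusted p = 0.0355), a call that was lost on leaving out any 1 of the WT libraries other than scWAT C85. In KO mice the depot difference was -0.33 ± 0.26 (adjusted p = 0.598), and -0.55 without KO epWAT C7 or -0.15 without KO scWAT C695.

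Igf2 encodes the fetal growth factor IGF-II, which signals through the IGF1 and insulin receptors and is cleared by the receptor Igf2r. It was near the lower limit of the filter. In epWAT it was at 1.21, 1.90 and 1.08 FPKM in KO mice C7, C34 and C695 and at 0.463, 0.805 and 0.861 FPKM in WT mice C75, C85 and C99. Only the KO values reached 1 FPKM, so Igf2 met the filter through the group where it was higher. The groups did not overlap, and the difference was 0.48 ± 0.18 (SE; adjusted p = 0.133), or 0.16 with a pseudocount of 5 and 1.12 with limma-voom. In reads the sums were 396 in KO and 218 in WT, or 1.99 times as many at equal depth (exact 95% limits 1.68 and 2.36, counting error only). These limits pool the mice of a group and leave out the spread between them. In scWAT it was at 0.924, 1.46 and 1.18 FPKM in KO and 1.73, 1.36 and 1.79 FPKM in WT, with a difference of -0.27 (-0.10 and -0.49 under those settings), and the groups overlapped. There the read sums were 349 and 485, or 0.733 times as many, given without limits because this comparison is described without a test.

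In WT mice Igf2 was higher in scWAT than in epWAT, by 0.62 ± 0.14 (SE; adjusted p = 0.0216). The difference ran from 0.21 with a pseudocount of 5 to 1.29 with limma-voom on recovered reads. Only the scWAT values reached 1 FPKM, so Igf2 met the filter through the group where it was higher, and its p is a description. In KO mice the depot difference was -0.13 ± 0.18 (adjusted p = 0.785). The WT call was not kept without a filter on low values (adjusted p = 0.0559). The Igf2 gene (ENSMUSG00000048583, chr7, 142650766 to 142666816, minus strand) has an overlapping antisense gene, so reads of the 2 strands may be mixed. H19 (ENSMUSG00000000031), its neighbour on the same strand with a gap of 72.6 kb, is a long noncoding RNA that shares its enhancers. H19 ranged from 0.0562 FPKM in KO epWAT C695 to 0.891 in KO scWAT C34 and was below 1 FPKM in all 12 libraries. In all 6 mice it was higher in scWAT than in epWAT, with ratios of 1.15 to 9.02 between values that were all below 1 FPKM. In scWAT H19 was at 0.175, 0.891 and 0.507 FPKM in KO mice C7, C34 and C695. It was at 0.755, 0.253 and 0.403 FPKM in WT mice C75, C85 and C99. Skeletal muscle markers in the same libraries and order summed to 10.3, 290 and 112 FPKM in KO and 86.0, 149 and 31.6 FPKM in WT. Their part in the H19 values was not tested.

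Around Igf2, the 20 genes of a list of IGF ligands, receptors, binding proteins and adaptors were examined. In the KO comparisons 16 were tested in epWAT and 15 in scWAT, and 0 passed in either. Those with the smallest p in epWAT were Igfbp4, which binds and holds IGFs, at 171 ± 18.3 FPKM in KO and 126 ± 6.57 FPKM in WT, and the insulin receptor gene Insr, at 12.8 ± 1.37 and 9.36 ± 0.58 FPKM (mean ± SD, n = 3; adjusted p = 0.0704 for both). Irs2, an adaptor of the insulin receptor, was at 20.002 ± 4.06 and 8.77 ± 4.11 FPKM (adjusted p = 0.0773). In scWAT Insr was at 14.0 ± 0.66 and 11.3 ± 0.15 FPKM (adjusted p = 0.122) and Igfals, part of the circulating IGF complex, at 33.3 ± 6.04 and 53.6 ± 10.3 FPKM (adjusted p = 0.146).

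Between the pads of WT mice, 6 of the 16 tested genes of that list passed, beside 22.4% of all genes. Higher in scWAT were Grb14, an inhibitor of the insulin receptor related to Grb10, by 1.60, and Igfbp5, Irs1 and Insr by 0.99, 0.58 and 0.24. Lower in scWAT were Igfbp2 by -2.31 and the RNA-binding protein gene Igf2bp2 by -1.17. Adjusted p values were 0.00388 to 0.0359. Igfbp2 varied among WT epWAT mice, at 5.17 ± 4.73 FPKM (mean ± SD, n = 3). In WT scWAT it was at most 0.0669 FPKM, so it met the filter only through epWAT, where it was higher. Its p is therefore a description. In KO mice 0 of 15 passed between the pads, beside 0.713% of all genes.

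Peg3 encodes a zinc finger protein expressed from the paternal copy, with effects on growth and body fat known from mutant mice. In the epididymal pad it set 1 mouse apart rather than a group. In epWAT it was at 24.2, 29.3 and 4.08 FPKM in KO mice C7, C34 and C695 and at 16.9, 12.1 and 16.9 FPKM in WT mice C75, C85 and C99. In scWAT it was at 14.4, 19.4 and 6.13 FPKM in KO and 36.7, 15.2 and 28.1 FPKM in WT. Mouse C695 had the lowest value of each pad. The epWAT difference was -0.03 ± 0.67 (SE; adjusted p = 0.977), and it became 0.78 without C695 (adjusted p = 0.114). The scWAT difference was -0.996, and -0.56 without C695. It was below 0 in all 19 alternative settings, though the groups overlapped.

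Zim1, a maternally expressed neighbour in the Peg3 cluster, was also lowest in mouse C695 in both pads, at 0.0494 FPKM in epWAT and 0.354 FPKM in scWAT. The other KO mice had 1.74 and 1.92 FPKM of Zim1 in epWAT and 1.16 and 1.63 FPKM in scWAT. Lymphocyte markers summed to 257 FPKM in KO scWAT C695 and to 4.08 FPKM in KO epWAT C695, and epididymis and germ cell markers to 0.448 and 9.30 FPKM. Their part in the low Peg3 and Zim1 values was not tested. In WT mice the Peg3 depot difference was 0.70 ± 0.31 (SE; adjusted p = 0.159). The adjusted p was 0.0239 with the mouse as a replicate block and 0.0301 without WT scWAT C85. It was higher in scWAT in 3 of 3 WT mice. Zim1 differed in the same direction, by 1.04 (adjusted p = 0.0242). It was at most 0.921 FPKM in WT epWAT and 1.49 to 3.64 FPKM in WT scWAT. Zim1 thus met the filter only through scWAT, where it was higher, and its p is a description.

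**Figure D5:**
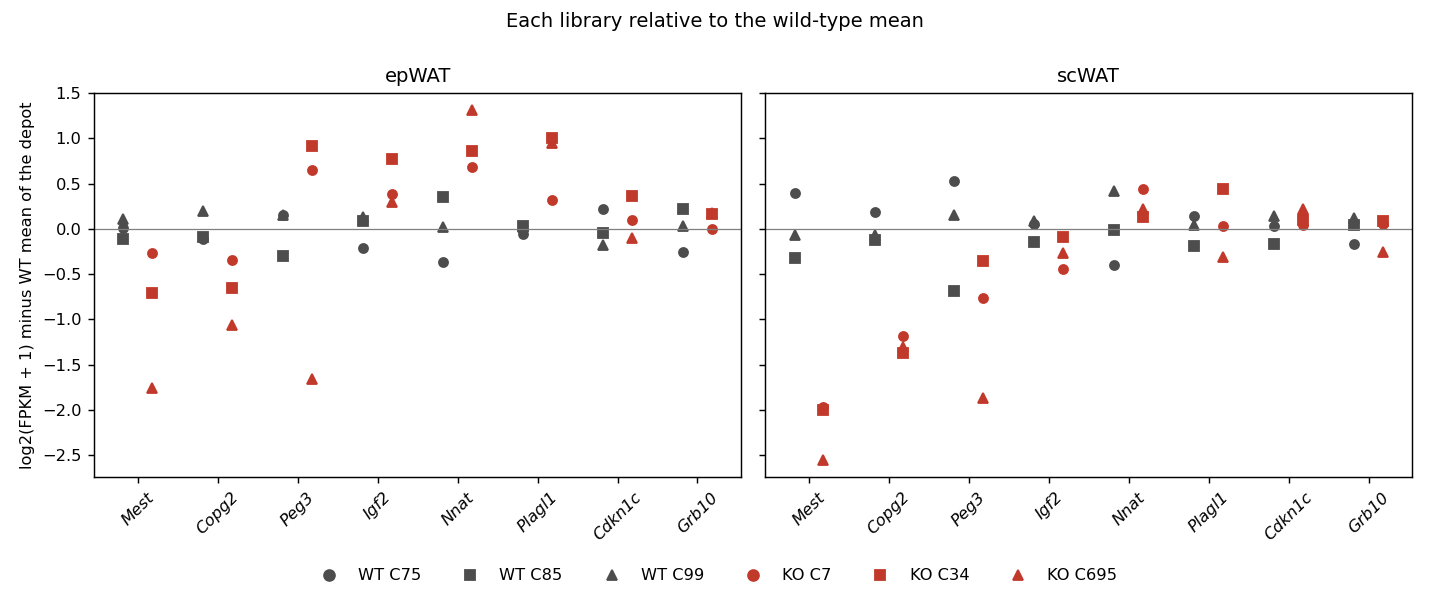
Log2(FPKM + 1) of 8 imprinted genes minus the WT mean of the same depot, with 1 symbol per mouse. Mest and Copg2 lie below the line in all KO libraries of both pads, Nnat, Plagl1 and Igf2 lie above it in all KO epWAT libraries, and Peg3 of mouse C695 (triangles) is low in both.

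Cdkn1c encodes the cell cycle inhibitor p57, expressed from the maternal copy. It ranged from 2.17 to 4.23 FPKM over all libraries, with overlapping groups in every comparison. Its KO minus WT difference was 0.12 ± 0.16 in epWAT (SE; adjusted p = 0.640) and 0.12 in scWAT. Grb10 encodes an adaptor that restrains insulin and IGF receptor signalling. It ranged from 5.82 to 9.47 FPKM, a highest-to-lowest ratio of 1.63 that was the smallest of the 10 genes, and its differences were 0.11 ± 0.13 in epWAT (SE; adjusted p = 0.597) and -0.04 in scWAT, where the sign turned without KO C695 (0.07) and without WT C99 (0.02). Between pads of WT mice Cdkn1c differed by -0.19 (adjusted p = 0.362) and Grb10 by 0.25 (adjusted p = 0.247).

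Dlk1 encodes a Notch-related transmembrane protein of preadipocytes that is expressed from the paternal copy. It was at most 0.268 FPKM in any library, in WT scWAT C99. KO libraries held 22 reads in epWAT and WT libraries 35, or 0.689 times as many at equal depth (exact 95% limits 0.385 and 1.21, counting error only). In scWAT the sums were 53 and 55. A difference was not detectable at this depth. The maternally expressed RNA Meg3 of the same cluster was at 2.18 ± 0.51 FPKM in KO and 3.87 ± 0.52 FPKM in WT epWAT (mean ± SD, n = 3; log2 difference -0.62 ± 0.15 SE; adjusted p = 0.0704) and at 2.17 ± 0.85 and 2.29 ± 0.98 FPKM in scWAT.

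Meg3 was 1 of 49 further imprinted genes, of which 45 were in the files. In epWAT 27 were tested and 0 passed, with 10 of higher and 17 of lower value in KO. Slc22a18 had the smallest p, at 5.05 ± 0.64 and 2.81 ± 0.54 FPKM (mean ± SD, n = 3; adjusted p = 0.0667). In scWAT 28 were tested and 0 passed, and the smallest p belonged to Tfpi2, at 4.28 ± 2.01 FPKM in KO and 8.52 ± 1.14 FPKM in WT (adjusted p = 0.207). Between the pads of WT mice 6 of 28 passed, a share near the 22.4% of all genes. Besides Blcap and Zim1, Ndn and Peg13 were higher in scWAT, by 0.33 and 0.31, and H13 and Inpp5f were lower, by -0.31 and -0.35 (adjusted p = 0.0142 to 0.0382).

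The marker genes of other cells were set beside these values. Macrophage markers (8 genes) summed to 398 to 1146 FPKM in KO and 1603 to 2339 FPKM in WT epWAT, and the median of their log2 differences was -1.61. The 12 mature adipocyte genes listed all had higher means in KO epWAT, with a median difference of 0.54. In scWAT the macrophage sums were 355 to 856 FPKM in KO and 544 to 654 FPKM in WT, and 7 of the 12 adipocyte genes had higher means in KO, with a median difference of 0.06. Progenitor markers (11 genes) had median differences of -0.005 in epWAT and 0.23 in scWAT. Of these 3 lists 0 genes passed in either KO comparison. The adipocyte genes with the smallest p in epWAT were Cfd, Lpl and Plin1 (log2 differences 1.78, 0.64 and 0.67; adjusted p = 0.0586, 0.0667 and 0.0704). Between the pads of WT mice, where 14.9% of all genes passed as lower and 7.49% as higher in scWAT, 8 of 8 macrophage genes passed as lower and 7 of 12 adipocyte genes as higher. Of the 11 progenitor genes, Pi16, Cd34, Zfp423, Ly6a and Thy1 passed as higher and Icam1 as lower. Thy1 was also higher in scWAT in KO mice, by 1.798 (adjusted p = 0.00583). Mest and Copg2 thus had lower means in KO epWAT where the adipocyte genes had higher ones, while Nnat and Plagl1 had higher means there. The part of cell makeup in the differences of the imprinted genes was not tested.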

How the data were processed

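RNA-seq of epWAT and scWAT from 3 KO and 3 WT mice gave 12 libraries. The deposited values were FPKM, 1 per Ensembl gene and library, normalized by the authors to gene length and library size. Per the submitters' processing notes the build was mm9; RNA was extracted with Trizol and standard Illumina libraries were made, per the labels' protocols. The aligner, counter, annotation and strand setting are not given in the sources used here. Values multiplied by GENCODE M21 (GRCm38) exon lengths and 1 depth per library were whole within 0.01 in all 12 libraries for 92.4% of genes, so gene models followed a GRCm38 annotation and coordinates are given for it. Of the identifiers 32553 matched it and 69 did not.

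For each comparison limma-trend was run on log2(FPKM + 1), a scale that understates changes of low genes, over its 6 libraries, keeping genes that reached 1 FPKM in 3 or more of them. Benjamini-Hochberg adjusted p under 0.05 over all tested genes was the threshold. Because the values were normalized, count tests were not used for the main results. The members and lists were chosen with earlier results of these data known. All 10 members were described in every comparison; of each list, the rule names up to 6 called genes by smallest p or, with none called, up to 3, and the 5 genes most alike Mest and Copg2. Some genes that meet it, mainly of the adipocyte and progenitor lists and in KO depot comparisons, are given only in counts and medians. P-values measure the spread between these 3 mice a group.

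Each mouse code names a library of either depot, taken as the same animal. Deviations from group means correlated at -0.03 to 0.36 within a mouse and at most 0.06 between mice of a genotype. Fits with the mouse as a replicate block were therefore run for the depot comparisons, and with the mouse as a random effect over 12 libraries for KO against WT, in which mice are nested. Other alternatives changed the filter, pseudocount, scaling, spread and libraries used, or applied limma-voom to recovered reads. Upper-quartile scaling had been planned without saying over which genes; 4 definitions were run, and the one used was picked after their counts were seen. On simulated data with 200 changed genes, 81% of 2-fold and 100% of 4-fold changes were recovered in the epWAT design (11215 genes). In the scWAT design (11218 genes) they were 75% and 100%, and 11 and 16 unchanged genes were called. Simulated libraries of a group differed only by counting error and 1 spread set equal for all genes, with no other tissue. In the real epWAT comparison 4.06% of genes had a log2 difference above 1 in size, and 0 passed. How often real changes are missed was not tested. Promoter and microRNA sequences are from RefSeq. Tools were limma 3.58.1 with statmod 1.5.0 under R 4.3.3, and scipy 1.17.1, numpy 2.4.6, matplotlib 3.10.9 and pandas 2.3.3 under Python 3.11.15.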

Additional observations from a re-analysis of the deposited data

How the results depend on the processing

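Mest, Copg2, Nnat, Plagl1 and Igf2 kept the direction of their KO minus WT differences in epWAT in every alternative in which they could be fitted, as Mest and Copg2 did in scWAT. Nnat and Plagl1 passed in epWAT in fits over 12 libraries, with the spread shared and no block (adjusted p = 0.0320 and 0.0392) as with the replicate block as a random effect (0.0311 and 0.0400), and without KO C7. Copg2 also passed there in some alternatives, with a smallest adjusted p of 0.0266. Peg3 in epWAT turned to 0.0523 with a pseudocount of 5, 0.0137 with limma-voom, 0.12 with quantile scaling and 0.11 with upper-quartile scaling (0.10, 0.11 and 0.12 under the other definitions), and its values without 1 library ranged from -0.51 to 0.78 (0.04 without WT C75 or WT C99). Without 1 library Plagl1 in scWAT ranged from -0.14 to 0.24 and Grb10 from -0.12 to 0.07, and Cdkn1c in epWAT ranged from -0.000286 (without KO C34) to 0.23 and Grb10 there from -0.0119 (without WT C75) to 0.22. In the KO depot comparison Peg3 was 0.08, 0.21 and 0.17 without KO epWAT C7, KO epWAT C34 or KO scWAT C695. It was 0.52 without both KO epWAT C7 and KO scWAT C695, and its lowest value without 1 library was -1.08. Igf2 was -0.22 to 0.0194 without 1 library (highest without KO epWAT C34), and Grb10 -0.0044 and -0.00631 with upper-quartile scaling over genes above 0 in any library and over all genes. Nnat passed in that comparison with quantile scaling (adjusted p = 0.042). Plagl1 in the WT depot comparison was not called without a filter or with the shared spread (adjusted p = 0.0767 and 0.272). The cause was not tested.

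Calls over all genes depended on the settings. In epWAT 0 became 39 with FPKM of at least 5, 29 with a pseudocount of 5, 90 with quantile scaling, 1765 with the shared spread, 51 with limma-voom on TMM-scaled reads (0 with library sizes only, added after seeing the data), 1759 with the random replicate block and 0 to 1781 without 1 library. In scWAT 40 became 11 without a filter, 72 with FPKM of at least 5, 23 with a pseudocount of 5, 22 with quantile scaling, 17 with limma-voom on library sizes only, 251 with the shared spread, 265 with the random replicate block and 0 to 142 without 1 library. Of the WT depot calls, 2852 became 1683 with the shared spread and 1272 to 2307 without 1 library, and higher against lower calls went from 956 and 1896 to 1413 and 1502 with quantile scaling, and to 1606 and 1404, 1462 and 1430, and 1439 and 1428 with upper-quartile scaling over tested genes, genes above 0 in any library and all genes. Of the KO depot calls, 90 became 44 without a filter, 55 with FPKM of at least 5, 649 with the shared spread and 12 with the mouse as replicate block. They became 7 to 36 without 1 library and 6 without both KO epWAT C7 and KO scWAT C695. Upper-quartile scaling, whose definition was picked after seeing the counts, gave 91 calls in epWAT and 23 in scWAT over each library's values above 0. Over tested genes it gave 0 and 39, over genes above 0 in any library 26 and 62, and over all genes 28 and 51. In epWAT scaling moved the median of all genes from -0.10 to 0.03. With the mouse as a replicate block, Peg3 in WT changed its call among the members tested in the depot comparisons. Igf2 in the WT depot comparison had no fit without a WT scWAT library or with FPKM of at least 5. Igf2, H19 and Dlk1 are limited by depth.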
